A study of Mus musculus with 10 samples.

Results

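The genes described here encode the machinery with which cells fold, modify and export secreted and membrane proteins in the endoplasmic reticulum (ER), together with the sensors and factors of the unfolded protein response. They were chosen by symbol, as 38 of the 53465 genes listed in the count tables, and all 38 were found by Ensembl identifier and passed the low-count filter that left 15695 genes to be tested. Lung tissue came from BALB/c mice, with 5 libraries labelled as controls and 5 from mice challenged through the nose with 1 µg of IL-33 in 35 µL on each of 5 days. IL-33 is an epithelial alarmin that drives type 2 inflammation, and lungs were collected 24 hours after the last challenge. Not given in the sources used here are the ages of the mice and whether controls received vehicle, and instillation and IL-33 cannot be told apart on that account. Each library was made from polyA-selected RNA of whole lung and held 7805175 to 13767118 reads in genes. Lung markers were present throughout, with Sftpc, a surfactant gene, at 10610.5 ± 907 CPM (reads scaled to a common library size, mean ± SD, n = 5) in controls and 10222 ± 787 CPM in IL-33 lungs.

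Proteins bound for secretion enter the ER through the Sec61 channel, lose their signal peptide to the signal peptidase complex and are folded by chaperones of the heat shock families, by lectins that read their glycans and by disulfide isomerases. Misfolded chains are recognised, drawn back to the cytosol and degraded, a route called ER-associated degradation. When unfolded chains pile up, the sensors encoded by Ern1, Atf6 and Eif2ak3 switch on the unfolded protein response, which raises chaperone genes through Xbp1 and Atf6 and amino acid and stress genes through Atf4 and Ddit3. In lung, plasma cells and mucus-secreting goblet cells are known for a heavy secretory load.

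Promoter sequence is shown first because 11 of these genes carry a published ER stress element, and their changes after IL-33 ran from a log2 fold change of -0.49 for Herpud1 to 3.06 for Derl3. The ER stress response element (ERSE), to which the ATF6 and XBP1 proteins bind with the factor NF-Y, reads CCAAT and CCACG with 9 bases of any kind between them, and the related ERSE-II reads ATTGG and CCACG with 1 base between them, so that the CCACG letters are common to both. Both were searched on both strands in RefSeq windows from 250 bases before to 50 bases after the transcript start (GRCm38.p6), which were given for 30 of the 38 genes. An ERSE was found in 9 of these 30 genes against 0.119% of the 32851 windows of all genes, and an ERSE-II in 2 of 30 against 0.0365%. The unfolded protein response element TGACGTGG and the element TGATGNAAT, bound by ATF4 dimers, were in 0 of the 30, against 0.676% and 0.965% of all windows. The counts out of 30 are of genes with the element in any of their windows. The percentages are of single windows, with those of the 38 genes included, so the units differ. These shares describe letters in a window and carry no test. The stretches below lie before the RefSeq transcript start and in no exon of the GENCODE M21 annotation, and are written 5′ to 3′ on the strand of the gene, with the element in capitals. An element on the opposite strand reads CGTGG first.
Pdia6, chr12:17266476-17266524, plus strand: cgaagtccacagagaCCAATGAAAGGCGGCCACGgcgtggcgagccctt
Creld2, chr15:88819505-88819553, plus strand: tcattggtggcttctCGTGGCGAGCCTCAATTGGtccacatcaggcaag
Derl3, chr10:75893227-75893275, plus strand: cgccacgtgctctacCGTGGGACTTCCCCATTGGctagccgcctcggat
Calr, chr8:84847060-84847108, minus strand: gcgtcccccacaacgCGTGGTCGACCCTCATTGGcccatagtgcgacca
Canx, chr11:50325785-50325833, minus strand: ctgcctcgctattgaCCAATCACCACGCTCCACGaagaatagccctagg
Dnajc3, chr14:118937812-118937860, plus strand: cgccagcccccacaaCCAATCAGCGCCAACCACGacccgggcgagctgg
Syvn1, chr19:6046517-6046565, plus strand: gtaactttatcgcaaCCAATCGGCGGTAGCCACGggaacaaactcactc
Herpud1 (ERSE-II), chr8:94386362-94386402, plus strand: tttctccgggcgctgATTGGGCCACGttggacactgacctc
Hsp90b1 held 2 ERSEs on opposite strands, and Dnajb11 held an ERSE-II after its transcript start; neither is printed. The ERSE of Hspa5 lies before the RefSeq start but inside the first exon of a longer GENCODE transcript, and is not printed.

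After IL-33, 25 of the 38 ER genes rose, 3 fell and 10 did not pass (edgeR quasi-likelihood test, Benjamini-Hochberg adjusted p of 0.05 over all tested genes). Of all tested genes, 69.9% passed this test, 35.1% as higher and 34.8% as lower, so the share of ER genes called was near the background, while the rises outnumbered the falls more than among all genes. The median log2 fold change, IL-33 over control, was 0.40 for the 38 genes and -0.01 for all tested genes. A stricter test, that the change exceeded 1.5-fold, was passed by 14 ER genes as higher and by 0 as lower, against 17.9% and 12.3% of all tested genes. The group values did not overlap for 24 of the 38 genes, against 56.5% of all tested genes, and of these 22 were higher and 2 lower, against 29.1% and 27.4%. Together the 38 genes took 0.709% of TMM-scaled reads in controls and 1.03% in IL-33 lungs. In whole lung, more RNA per cell and more cells of a type that holds the RNA cannot be told apart.

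**Figure D1:**
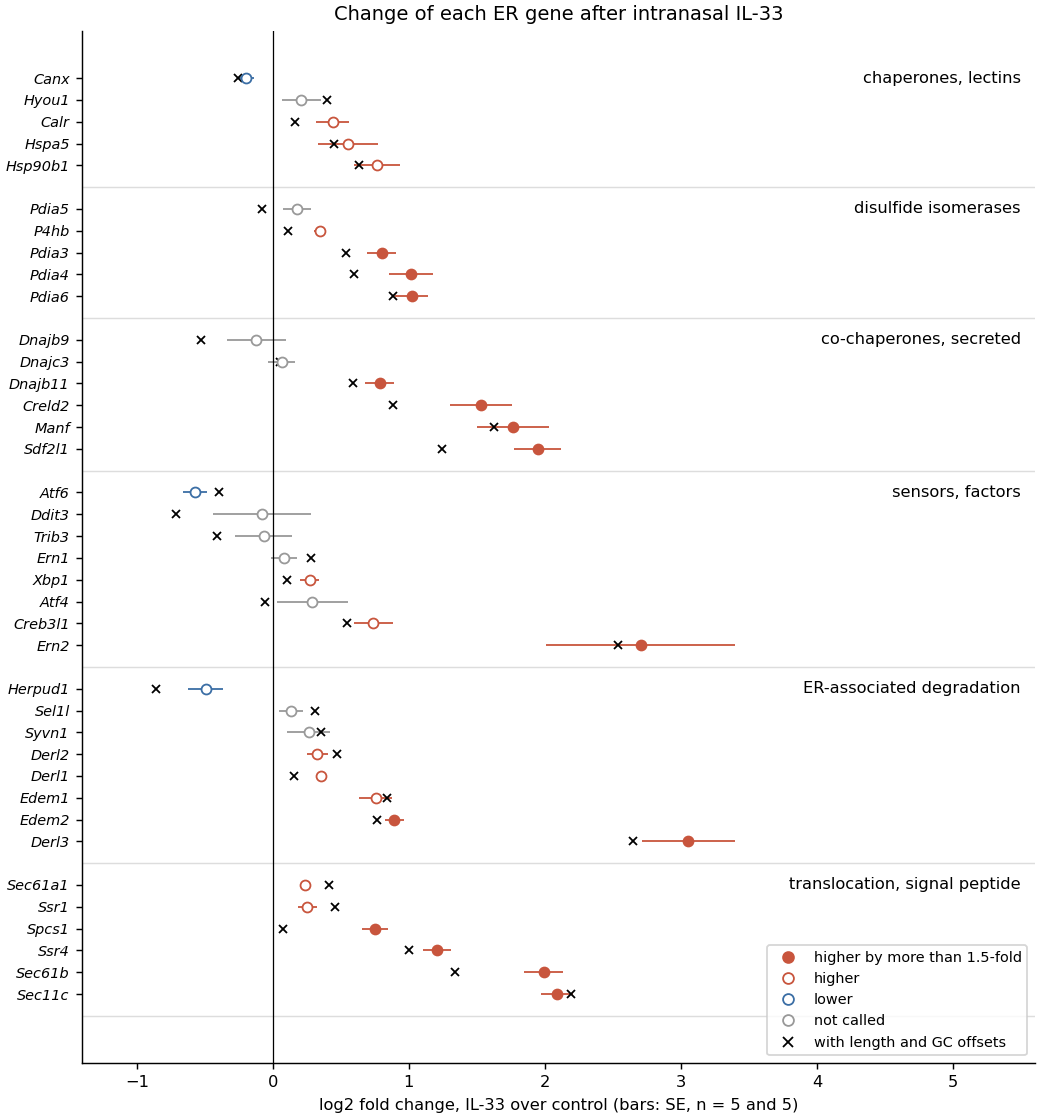
Log2 fold change (IL-33 over control) of each of the 38 ER genes by role, with SE bars from 5 and 5 libraries; filled points passed the test against a 1.5-fold change, and crosses give the value with length and GC offsets. Derl3, Ern2, Sec11c, Sec61b and Sdf2l1 lie farthest to the right, Ern2 with only 27 reads in all controls. Atf6, Herpud1 and Canx are the 3 genes called lower.

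Transcript length moved with the fold change over all tested genes. The 10% with the shortest exons in sum, at most 1527 bases, had a median of 0.72 on the log2 scale, whereas the 10% with the longest had -0.31. With offsets fitted in each library to exonic length and to GC content, 25 ER genes were higher and 5 lower, against 30.1% and 38.3% of all genes. Of the 28 genes called without offsets, 24 kept call and direction with them. More than 1.5-fold, 10 were then higher and 1, Herpud1, lower, against 13.3% and 14% of all genes. Library 2 of the IL-33 group also stood apart, holding the highest value of its group for 33 of the 38 genes, and control library 1 held the lowest control value for 24. Without both, a choice made after the data were seen, 24 genes were higher, 3 lower and 11 higher by more than 1.5-fold. Multiply aligned records, which the counts leave out, were at most 16.2% of all records in controls and 19.97% to 22.8% in IL-33 libraries; their part in the results was not tested.

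Of the 5 chaperones and lectins of the ER lumen and membrane, 3 rose, 1 fell and 1 did not pass. This count and those of the role groups below stand against 35.1% higher and 34.8% lower of all tested genes. With the offsets those shares were 30.1% and 38.3%. More than 1.5-fold, 17.9% of all tested genes were higher, or 13.3% with the offsets. Changes are given from here on as log2 fold changes ± SE. Hspa5 (ENSMUSG00000026864, chromosome 2, 34771970 to 34777547) encodes BiP, the main ER Hsp70, which holds unfolded chains and keeps the stress sensors quiet. It stood at 490.2, 802, 861, 756 and 629.7 CPM in controls 1 to 5 and at 777, 1441, 1051, 1114 and 799.5 CPM in IL-33 libraries 1 to 5. Libraries 1 and 5 of the IL-33 group lay within the control range, so the groups overlapped. The log2 fold change was 0.55 ± 0.22 (SE), with an edgeR adjusted p of 0.0162, and it was 0.30 with an adjusted p of 0.0719 without control 1 and IL-33 library 2. Hsp90b1, the ER Hsp90 known as GRP94, had 645, 819.9, 986, 923 and 881 CPM in controls and 1106, 1899, 1577, 1411 and 1243 CPM in IL-33 lungs. Every IL-33 library was above every control, and the log2 fold change was 0.77 ± 0.17 (edgeR adjusted p = 4.62e-04). Of its exonic bases 10.3% overlap a gene on the other strand, and since the strand setting of the counting is not given, its count is uncertain there.

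The remaining chaperones of this group were a lectin pair and a further Hsp70-type protein. Calr, calreticulin, rose from 699 ± 99.00 to 947 ± 109.7 CPM, with overlapping groups and a log2 fold change of 0.44, which was 0.16 and not called with length and GC offsets. Canx, calnexin, its membrane-bound counterpart, fell by 0.20 (edgeR adjusted p = 0.0247). That call was lost without control 4 (adjusted p = 0.0567) and without IL-33 library 1 (adjusted p = 0.0624). Hyou1, an Hsp70 relative that exchanges the nucleotide of BiP, had 171 ± 26.1 and 198 ± 30.9 CPM and did not pass, though it did at 0.40 with the offsets. Per kilobase of exonic length, Calr was the most abundant of the 38 genes in controls, at 243 ± 34.4 CPM per kb, followed by Hsp90b1 at 211 ± 32.3 and Pdia3 at 186 ± 22.5. P4hb at 168 ± 8.09 and Hspa5 at 167 ± 35.1 came next, and neighbours in this order differed by no more than the larger of their SDs. In IL-33 lungs the order began with Hsp90b1 (359 ± 76.4 CPM per kb), Calr (329 ± 38.1) and Pdia3 (323 ± 37.9), again within their SDs.

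Disulfide isomerases, which form and reshuffle the disulfide bonds of secreted proteins, rose in 4 of 5 cases, 3 of them by more than 1.5-fold, or in 3 cases and 1 with the offsets. Pdia4 had 112, 132, 172, 151 and 131 CPM in controls and 216, 370.1, 281, 283 and 263 CPM in IL-33 lungs. Pdia6 had 202, 234, 283, 252 and 231 CPM and 431, 591, 519.6, 473 and 426 CPM. In both genes the lowest IL-33 library exceeded the highest control, and the log2 fold changes were 1.02 ± 0.16 and 1.02 ± 0.12 (edgeR adjusted p 2.44e-05 and 2.91e-06). Pdia3, which works with the lectins on glycoproteins, rose from 583 ± 70.6 to 1015 ± 119 CPM, and P4hb, the founding isomerase and also a subunit of collagen prolyl hydroxylase, from 479 ± 23.2 to 609 ± 29.2 CPM. With the offsets P4hb was 0.11 and no longer called, and Pdia3 (0.54) and Pdia4 (0.60) no longer passed the test against 1.5-fold. Pdia5 had 23.3 ± 2.38 and 26.4 ± 2.87 CPM and did not pass.

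**Figure D2:**
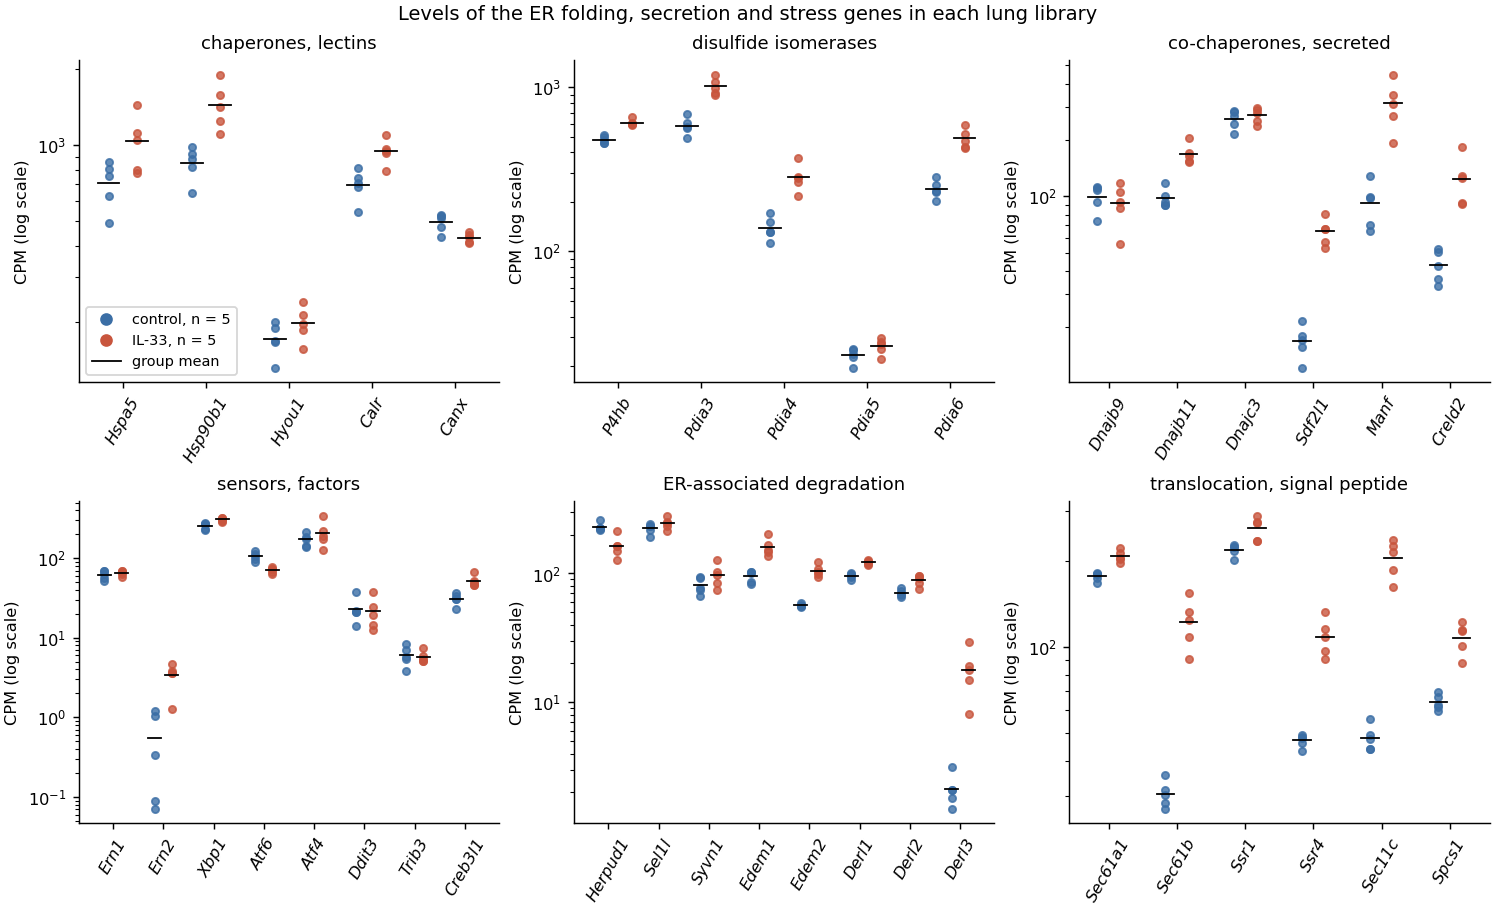
CPM (log scale) of the 38 ER genes in each of the 5 control (blue) and 5 IL-33 (red) libraries, with black lines at the group means, in 6 panels by role. Sdf2l1, Manf, Creld2, Derl3, Sec61b and Sec11c show a clear gap between the groups, whereas Dnajb9, Dnajc3, Ddit3 and Trib3 overlap.

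Among co-chaperones and small stress proteins the responses split. Sdf2l1 (ENSMUSG00000022769, chromosome 16, 17130138 to 17132383), a lumenal partner of the J-domain protein encoded by Dnajb11, had 12.2, 15.8, 21.7, 17.2 and 17.97 CPM in controls and 53.3, 80.6, 66.8, 67.2 and 57.3 CPM in IL-33 lungs. Manf (chromosome 9, 106838312 to 106891979), a secreted ER stress protein with trophic activity, had 65.7, 98.2, 128, 98.8 and 70.6 CPM and 269, 446, 347, 312 and 193 CPM. Creld2 (chromosome 15, 88819646 to 88826683), an isomerase-like ER protein that stressed cells also secrete, had 33.3, 42.6, 52.5, 50.7 and 36.2 CPM and 92.00, 184, 128, 126 and 91.6 CPM. None of the 3 overlapped between groups, and IL-33 library 2 was the highest for each. Log2 fold changes were 1.95 ± 0.17, 1.76 ± 0.27 and 1.53 ± 0.23, with edgeR adjusted p of 1.44e-07, 1.11e-05 and 1.12e-05. With the offsets they were 1.24, 1.62 and 0.88, and only the first 2 still passed the test against 1.5-fold. Of the exonic bases of Manf 8.85% overlap genes on the other strand.

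Dnajb11, which brings substrates to BiP, rose from 98.2 ± 11.7 to 169 ± 20.7 CPM (0.79 ± 0.10 on the log2 scale). Dnajc3, which recruits BiP and also restrains translation-arresting kinases, had 259 ± 30.2 and 272 ± 25.7 CPM and did not pass. Dnajb9, a J-domain protein that restrains the sensor Ern1 and is a classic target of Xbp1, had 73.7, 111, 113, 108 and 93.4 CPM in controls and 86.5, 118, 106, 93.1 and 55.9 CPM in IL-33 lungs. The highest value and the lowest value of all 10 libraries were both in the IL-33 group, and the log2 fold change of -0.12 did not pass, although with offsets it was -0.53 and called (edgeR adjusted p = 0.0135). In this group of 6, 4 rose and 0 fell, or 4 and 1 with the offsets, and of the 4 that rose by more than 1.5-fold 2 did so with the offsets, Creld2 and Dnajb11 (0.59) not.

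Of 8 sensors and transcription factors 3 rose, 1 fell and 4 did not pass, or 3 and 2 with the offsets, shares near those of all tested genes for the rises (35.1% higher, or 30.1% with the offsets). The median was 0.17, or 0.02 with the offsets. Ern1, the ubiquitous sensor kinase that splices Xbp1 mRNA, had 61.7 ± 7.92 and 65.1 ± 4.396 CPM (log2 0.08, and 0.28 with an edgeR adjusted p of 0.00965 with the offsets). Its paralogue Ern2, a sensor of mucus-secreting epithelium, had 0.0708, 1.21, 0.339, 0.0877 and 1.05 CPM in controls, from 27 reads in all, and 1.29, 3.799, 3.64, 3.59 and 4.62 CPM in IL-33 lungs, from 182 reads. The values did not overlap, though IL-33 library 1 lay close to control 2, and the log2 fold change was 2.71 ± 0.70 (edgeR adjusted p = 5.46e-04). Too few controls held enough reads for the low-count filter, so Ern2 was tested only on account of its IL-33 libraries. Its call and lack of overlap rest on that, and it is counted among the 25 higher genes and the 14 past 1.5-fold. Creb3l1, an ER-anchored factor of secretory and matrix-producing cells, rose from 31.1 ± 4.82 to 51.9 ± 8.58 CPM (log2 0.74 ± 0.15, without overlap).

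Xbp1, whose spliced mRNA encodes the main activator of secretory capacity, had 229.9, 279, 267, 267 and 229 CPM in controls and 321, 324, 307, 296 and 286 CPM in IL-33 lungs. The groups did not overlap, but the rise was small, 0.27 ± 0.07 on the log2 scale (edgeR adjusted p = 0.005697), and it was 0.10 and not called with the offsets. Counts per gene do not show how much of the Xbp1 mRNA was spliced. Atf6 (chromosome 1, 170704674 to 170867771), the sensor that is cut in the Golgi to release a transcription factor, had 90.8, 106, 98.4, 113 and 122 CPM in controls and 72.7, 67.9, 63.6, 73.7 and 77.3 CPM in IL-33 lungs. It was lower in every IL-33 library than in any control, falling by 0.57 (edgeR adjusted p = 4.59e-05), and was -0.39 and still called with the offsets.

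Among the sensors and factors, the genes at the end of the Eif2ak3 branch, Atf4, Ddit3 and Trib3, did not pass without the offsets. Atf4, its translationally controlled factor, had 139.9, 215, 143, 174 and 186 CPM in controls and 189, 341, 174, 219 and 127 CPM in IL-33 lungs, with a log2 fold change of 0.29 that was -0.02 without control 1 and IL-33 library 2. Ddit3, the factor CHOP that promotes death of stressed cells, had 14.2, 37.3, 21.3, 21.1 and 21.4 CPM and 14.6, 38.1, 19.2, 24.5 and 12.4 CPM. In each group library 2 was the highest, and the other 4 libraries lay between 12.4 and 24.5 CPM. The Ddit3 difference of -0.08 ± 0.36 did not pass; with the offsets it was -0.71 with an edgeR adjusted p of 0.0431. Trib3, a pseudokinase induced by CHOP, had 6.06 ± 1.704 and 5.77 ± 0.956 CPM. In 4.73% of its exonic length Ddit3 overlaps genes on the other strand, and a second annotated gene of the same symbol shares 1.81% of its 75-base windows, so its count is uncertain.

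In ER-associated degradation 5 of 8 genes rose and 1 fell, or 7 and 1 with the offsets. Derl3 (ENSMUSG00000009092, chromosome 10, 75893413 to 75895941), the derlin of highly secretory cells, had 1.49, 2.08, 1.81, 3.16 and 2.09 CPM in controls and 8.11, 29.1, 17.8, 14.8 and 19.1 CPM in IL-33 lungs. Even its lowest IL-33 library was above the highest control, and the mean was 8.31-fold higher in the fit, a log2 fold change of 3.06 ± 0.34 (edgeR adjusted p = 2.29e-06). Its broadly expressed paralogues Derl1 and Derl2 rose by 0.36 ± 0.04 and 0.33 ± 0.08. Per kilobase Derl3 remained the least abundant derlin in IL-33 lungs, at 8.92 ± 3.83 CPM per kb against 11.01 ± 1.06 for Derl2, which overlap within their SD, and 36.8 ± 1.400 for Derl1.

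Both mannosidase-like proteins that mark misfolded glycoproteins rose, Edem2 from 56.6 ± 1.77 to 105 ± 11.1 CPM and Edem1 from 95.1 ± 9.74 to 161 ± 26.00 CPM. The ubiquitin ligase subunits Sel1l and Syvn1 had log2 fold changes of 0.13 and 0.26 and did not pass, while with the offsets both did (0.31 and 0.35). Herpud1 (chromosome 8, 94386438 to 94395377), a short-lived scaffold of the ligase and a common marker of ER stress, had 218, 259, 224, 225 and 222 CPM in controls and 149, 213, 162, 165 and 127 CPM in IL-33 lungs. The highest IL-33 library, library 2, lay just under the lowest control, and the gene fell by 0.49 (edgeR adjusted p = 0.00174), and was -0.86 with the offsets. It carries the ERSE-II printed above, and of the 9 genes with an ERSE in their window 6 rose, 1 fell and 2 did not pass, 3 of them higher by more than 1.5-fold. Of the 21 genes with a window and no ERSE, 13 rose and 1, Herpud1 itself, fell, and 8 were higher by more than 1.5-fold. Herpud1 and Dnajb11, which carry an ERSE-II, are counted among these 21. Of all tested genes, 35.1% were higher, 34.8% lower and 17.9% higher by more than 1.5-fold. The difference between genes with and without an ERSE was not tested. Among 24 other genes in the count tables with an ERSE window, 8 were tested, of which 3 rose and 4 fell.

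Translocation and signal peptide genes all rose, 6 of 6, and 4 of them by more than 1.5-fold, or 5 and 3 with the offsets. Sec11c (ENSMUSG00000024516, chromosome 18, 65800515 to 65817684), a catalytic subunit of signal peptidase, had 56.02, 47.7, 49.1, 44.03 and 43.8 CPM in controls and 215, 237, 226, 185 and 162 CPM in IL-33 lungs. Sec61b (chromosome 4, 47474658 to 47483242), the small beta subunit of the channel, had 35.6, 28.5, 31.6, 30.3 and 27.1 CPM and 132, 155, 124, 109 and 90.9 CPM. For both, the lowest IL-33 library lay far above the highest control, and the log2 fold changes were 2.09 ± 0.12 and 1.99 ± 0.15 (edgeR adjusted p 9.57e-09 and 4.83e-08). With the offsets Sec11c was 2.19 and Sec61b 1.34. Of the 75-base windows of Sec61b 10.1% also occur in other genes, so its level is uncertain.

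Ssr4, the delta subunit of the translocon-associated complex, had 49.2, 48.4, 46.04, 48.2 and 43.4 CPM in controls and 115, 132, 109, 97.1 and 90.6 CPM in IL-33 lungs, a log2 fold change of 1.21 ± 0.10 without overlap. Its alpha subunit, Ssr1, rose by 0.25 ± 0.07, and Sec61a1, the pore-forming subunit, by 0.24 ± 0.04. The difference between subunits of the channel, 1.99 for Sec61b against 0.24 for Sec61a1, was not tested, and 8.16% of the exonic bases of Sec61a1 overlap a gene on the other strand. Spcs1, a small subunit of signal peptidase, rose from 63.9 ± 3.94 to 108 ± 13.6 CPM, but with the offsets it was 0.07 and not called, and 16.3% of its exonic bases overlap a gene on the other strand.

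**Figure D3:**
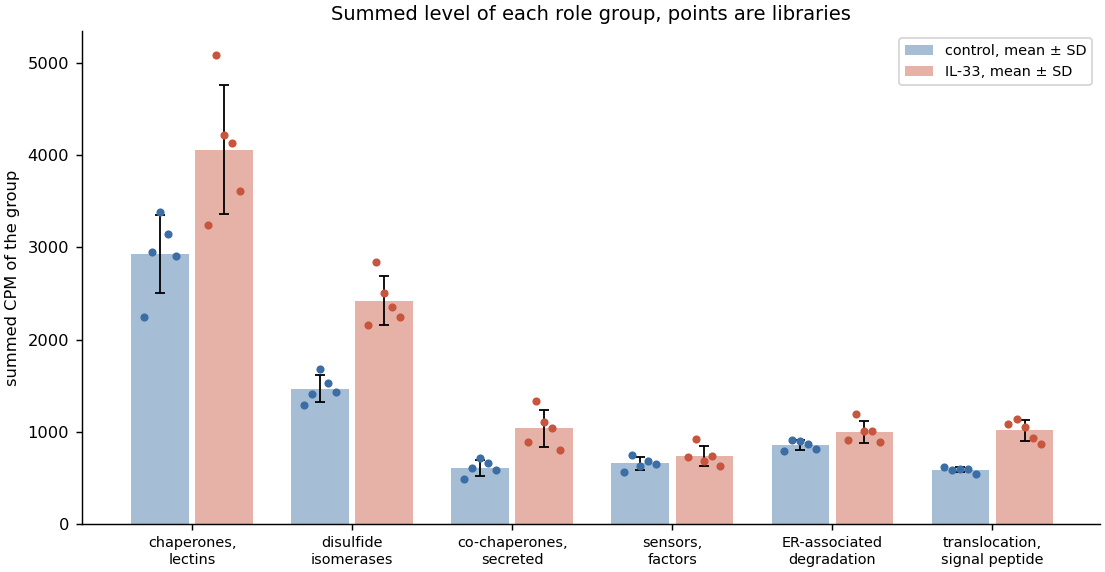
Summed CPM of the genes of each role group, with bars for the mean, error bars for the SD and points for the 5 libraries of each group. The translocation genes, the disulfide isomerases and the co-chaperones and secreted stress proteins do not overlap between groups. Their controls reach up to 614, 1676 and 716 CPM, and their IL-33 libraries start from 862, 2162 and 805 CPM. The chaperones and lectins, the sensors and factors and the degradation genes overlap.

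Most tested markers of plasma, goblet and dividing cells were also higher in IL-33 lungs. Of 14 plasma cell markers, 10 of the 13 tested rose and 1, Sdc1, fell, and their summed level was 877 to 1205 CPM in controls and 2422 to 10508 CPM in IL-33 lungs. All 13 goblet cell markers rose, from a summed 97.8 to 474 CPM to 1052 to 4080 CPM, and all 10 markers of dividing cells, from 52.2 to 68.0 CPM to 632 to 997 CPM. Of all tested genes, 35.1% were higher and 34.8% lower. No marker of these lists was at 0 in every control. Ern2 and Agr2, both goblet cell markers, passed the low-count filter only on account of their IL-33 libraries, and their calls rest on that. Whether other markers did so was not examined. Xbp1 is itself in the plasma cell list, and Ern2 and Creb3l1 in the goblet cell list. Of the further ER folding genes described below, Mzb1, Txndc5 and Fkbp11 are in the plasma cell list and Agr2 in the goblet cell list. The counts of these lists therefore share genes.

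Jchain, which joins secreted IgM and IgA, had 10.98, 16.9, 6.43, 6.403 and 21.9 CPM in controls and 92.4, 502, 280.3, 229 and 209 CPM in IL-33 lungs. Mzb1, an ER chaperone of antibody-secreting cells, had 21.6, 92.2, 36.01, 37.7 and 38.2 CPM in IL-33 lungs. Library 1 was the lowest and library 2 the highest of the 5 for Jchain and Mzb1, as for Derl3, whereas Igha, another plasma cell marker, was lowest in library 2 and highest in library 4. Agr2, an isomerase of mucus-secreting cells, had 33.4, 81.97, 65.6, 73.8 and 48.8 CPM, again lowest in library 1 and highest in library 2. Ern2 was also lowest in library 1 but highest in library 5. The summed goblet cell markers were lowest in library 1 and highest in library 4, at 4080 CPM against 4068 CPM in library 2. Creb3l1, of the same list, was lowest in library 3 and highest in library 2. Sec11c, by contrast, was above its group mean in library 1 and lowest in library 5. The part of these cells in the changes of the ER genes was not tested. Alveolar type 2 markers, of the surfactant-secreting epithelium, moved the other way, with 7 of 10 lower, 2 higher and a summed 23238 to 26386 CPM in controls against 18476 to 22441 CPM. Of 10 macrophage markers 6 rose and 4 fell, 5 and 1 of them by more than 1.5-fold, with a median log2 fold change of 0.61. Their summed level, in which abundant genes weigh most, was 4018 to 4350 CPM in controls and 1971 to 2515 CPM in IL-33 lungs. Lyz2 is in both the macrophage and the alveolar type 2 list. The counts of both lists stand against 35.1% higher and 34.8% lower of all tested genes.

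**Figure D4:**
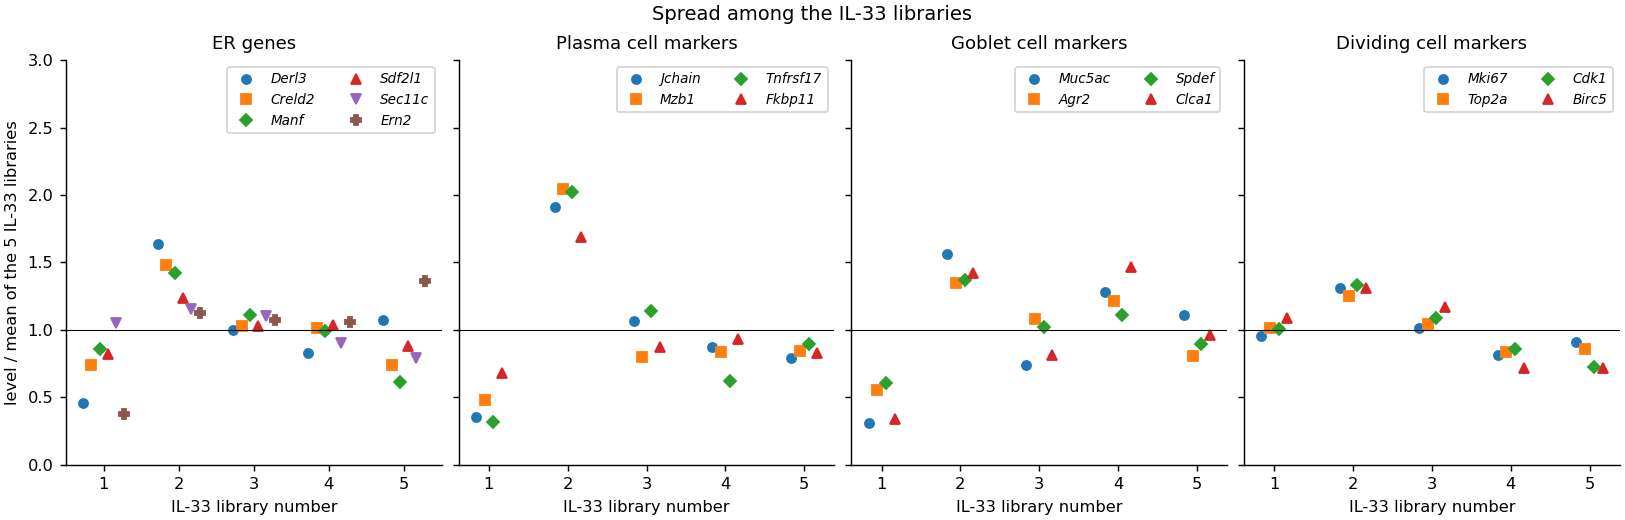
Level in each of the 5 IL-33 libraries divided by the mean of the 5, for 6 ER genes and for markers of plasma, goblet and dividing cells. Library 2 is the highest for Derl3, Creld2, Manf and Sdf2l1 and for each plasma cell marker shown, and library 1 is the lowest for Derl3, Ern2 and each plasma and goblet cell marker shown. The markers shown are only some of each list. Of those not shown, Igha was lowest in library 2, and Xbp1 and Creb3l1 were not lowest in library 1. Library 2 was also the highest for 33 of the 38 ER genes.

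The rest of the ER pathway, 116 genes outside the 38, also moved: of 113 tested, 54 rose, 27 fell and 32 did not pass, with a median log2 fold change of 0.18. With the offsets 47 rose and 30 fell, and the median was 0.09. Over all tested genes 35.1% were higher and 34.8% lower, or 30.1% and 38.3% with the offsets, and the counts of each list below stand against these shares. In folding and oxidation 17 of 27 further genes rose and 3 fell. Agr2 went from 2.41 ± 1.78 to 60.7 ± 19.6 CPM and Mzb1 from 2.82 ± 0.881 to 45.1 ± 27.2 CPM. Their log2 fold changes were 4.68 and 3.96, or 3.94 and 3.26 with the offsets. Agr2, at 0.263 CPM in control 4, was tested only on account of its IL-33 libraries. Its call rests on that, and it is counted among the 17 that rose. Cdnf, a paralogue of Manf, fell by 1.19 and Dnajb14, a J-domain protein, by 0.35, a call lost with the offsets. Ppib, a prolyl isomerase and the most abundant of that list per kilobase, rose from 181 ± 6.55 to 355 ± 25.02 CPM. In translocation and glycan transfer it was 18 higher and 3 lower of 26, or 15 and 5 with the offsets. Srp9, of the signal recognition particle, rose by 1.12 ± 0.11, Ostc and Ddost, of the oligosaccharyltransferase, by 1.09 ± 0.10 and 0.48 ± 0.06, though Ddost was 0.09 and not called with the offsets. Srpr, the particle's receptor, fell by 0.50 and Sec63 by 0.45.

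Of 21 further degradation genes 7 rose and 9 fell, which is near the shares of all tested genes (35.1% higher and 34.8% lower). With the offsets 4 rose and 9 fell, against 30.1% and 38.3% of all tested genes. Rnf5, a membrane ubiquitin ligase, rose by 0.98 ± 0.09, though by 0.37 and no longer past 1.5-fold with the offsets, and Ube2j2, a ubiquitin-conjugating enzyme, by 0.71 ± 0.08. Rhbdd1, a rhomboid protease, fell by 0.74 and Edem3, the third Edem gene, by 0.68, whereas Edem1 and Edem2 rose. Os9, a lectin and the most abundant of that list per kilobase, had 0.15 and did not pass. ER exit and retrieval genes held 9 rises and 6 falls of 22, or 7 and 6 with the offsets, again near the shares of all tested genes. Tmed2, of the vesicle cargo machinery, rose by 1.28 ± 0.15, and Kdelr3 and Kdelr1, receptors that return ER proteins, by 1.05 ± 0.14 and 0.63 ± 0.07. With the offsets Kdelr3 was 0.41, no longer past 1.5-fold, and Kdelr1 0.14, both still called. Lman1, a cargo receptor, fell by 0.46 and Sec23a, of the vesicle coat, by 0.42.

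Of 17 tested sensors and response genes outside the 38, 6 fell and 3 rose, or 7 and 3 with the offsets; the share that fell is near the 34.8% of all tested genes. Mbtps1, the Golgi protease that cuts Atf6, went from 178 ± 15.8 to 100.3 ± 12.3 CPM, and Creb3l2 from 174 ± 20.7 to 101 ± 6.92 CPM. Eif2ak3, the sensor kinase PERK, went from 55.4 ± 5.34 to 37.2 ± 2.43 CPM, a fall of 0.57 (edgeR adjusted p = 2.70e-05), and Mbtps2, the second protease, fell by 0.67; both were chosen after their values were seen. Bak1 and Bax, which permeabilise mitochondria in apoptosis, rose by 0.84 ± 0.10 and 0.78 ± 0.09. With the offsets these 2 genes (0.54 and 0.45), Mbtps1 (-0.57) and Creb3l2 (-0.63) kept their calls but not those against 1.5-fold. Tmbim6, an ER calcium leak protein, had -0.13 and did not pass.

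Of 29 tested targets of ATF4, 12 rose and 4 fell, or 13 and 6 with the offsets. Of all tested genes, 35.1% rose and 34.8% fell, or 30.1% and 38.3% with the offsets. The rises were near the background without the offsets and above it with them, while the falls were below it in both. The differences were not tested. Slc7a11, the cystine transporter, went from 2.57 ± 0.827 to 16.01 ± 2.495 CPM and Mthfd2, of mitochondrial folate metabolism, from 4.42 ± 0.453 to 27.2 ± 6.81 CPM. Vldlr, a lipoprotein receptor, fell from 90.1 ± 9.51 to 31.8 ± 6.86 CPM and Stc2, a secreted glycoprotein, from 5.39 ± 0.778 to 2.72 ± 0.789 CPM. Cebpb, the most abundant per kilobase, had 0.34 and did not pass. Among genes picked after their values were seen, Psat1 and Phgdh, of serine synthesis, rose by 1.91 ± 0.12 and 1.54 ± 0.16, whereas Asns, asparagine synthetase, had 0.04 ± 0.10 and Chac1, a glutathione-degrading enzyme, -0.00 ± 0.28; neither of the latter passed.

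**Figure D5:**
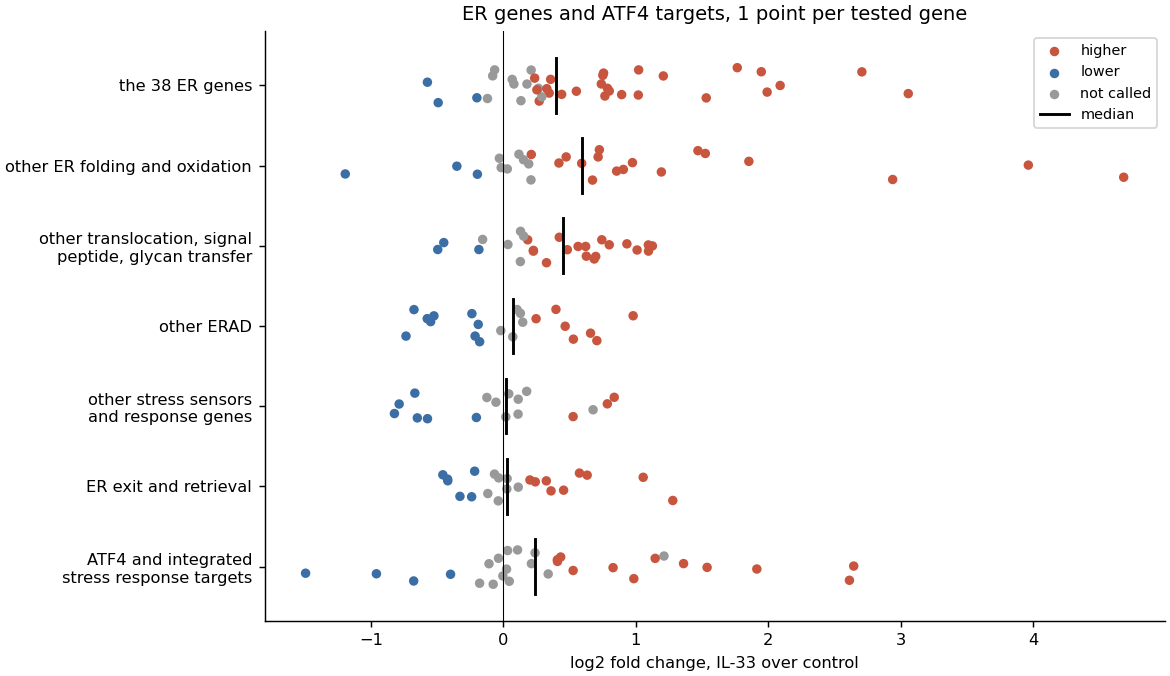
Log2 fold change (IL-33 over control) of each tested gene of the 38 ER genes, of 5 lists of other ER genes and of ATF4 targets, coloured by call at an adjusted p of 0.05, with a black bar at each median. The medians run from 0.02 for other sensors to 0.59 for other folding genes, and Mzb1 and Agr2 lie above 3.9.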

How the data were processed

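For each of 10 libraries the authors deposited whole-number counts of reads by gene, not normalized. The submitters' processing notes name FastQC 0.11.6, MultiQC 1.6, STAR 2.5.4b, HTSeq 0.9.1 and the GRCm38 genome; annotation release and strand setting were not given in the sources used here. The library kit keeps strand, per the labels' protocols. Entries that name no gene (10.4% to 13.7% of records in no feature, up to 22.8% multiply aligned, 0.862% to 0.945% ambiguous) were left out. No 2 libraries of a group were alike within sampling noise (chi-square over its degrees of freedom from 5.44). The labels do not say whether libraries came from separate mice, so p-values measure the spread between these libraries, which may be technical.

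A single model of group was fitted to all 10 libraries with edgeR 4.0.16 under R 4.3.3, with TMM factors from 0.969 to 1.03, filterByExpr, glmQLFTest and, against a 1.5-fold change, glmTreat. CPM use TMM-scaled library sizes; SEs come from log2(CPM + 0.1). Positions, exonic lengths, shared 75-base windows and overlaps come from GENCODE M21 (GRCm38), and promoters from RefSeq. Genes and lists were chosen with earlier results of these data known. Every one of the 38 genes is named; of the other lists, each names the 2 largest called changes in either direction (mean of at least 1 CPM) and its most abundant gene per kb. Alternatives were DESeq2 1.42.0, limma-voom (limma 3.58.1), other scalings and filters, the replicate number as a block, length and GC offsets and leaving out libraries. Figures were drawn with matplotlib 3.10.9.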

Additional observations from a re-analysis of the deposited data

Results flagged for a closer look

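In 3 of the 76 sets of 5 libraries examined (38 genes in 2 groups), 1 library lay far from the other 4 for its gene, with a gap to the nearest of more than 0.71 of the whole range on the log2(CPM + 0.1) scale; chance flags about 1 set in 20. Ern2 had 1.29 CPM in IL-33 library 1 against 3.59 to 4.62 CPM in the other 4. P4hb had 659.8 CPM in IL-33 library 2 against 586 to 604 CPM. Herpud1 had 259 CPM in control 2 against 218 to 225 CPM. Each of these 3 genes kept its call and direction when that library was left out.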

How the results depend on the processing

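All 28 calls among the 38 genes kept their direction and their side of the threshold under DESeq2, limma-voom, 3 other scalings and 2 other low-count filters. The 14 genes higher by more than 1.5-fold were 11 under DESeq2, limma-voom, no low-count filter and an adjusted p of 0.01, and 10 with length and GC offsets. With length and GC offsets 24 of the 28 calls were kept in the same direction. The genes called lower went from 3 to 5, and those lower by more than 1.5-fold from 0 to 1. Calr, P4hb, Xbp1 and Spcs1 lost their calls there, the cause was not tested, and Pdia5 (-0.079) and Atf4 (-0.056), neither called, changed sign. At an adjusted p of 0.01 Hspa5 and Canx were not called. Leaving out 1 library at a time gave 25 to 27 genes higher, 2 to 3 lower and 11 to 15 higher by more than 1.5-fold, and 10517 to 11089 calls over all genes. Across these and the setting without both control 1 and IL-33 library 2, which was chosen after the data were seen, 6 genes changed sign with no call: Dnajb9 ranged from -0.32 to 0.013, Dnajc3 from -0.0302 to 0.11, Ern1 from -0.0043 to 0.12, Atf4 from -0.020 to 0.42, Ddit3 from -0.51 to 0.14 and Trib3 from -0.30 to 0.075.

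Libraries with the same replicate number did not deviate together in every pair (correlations 0.231, 0.214, 0.0605, -0.0692 and 0.149), so the numbers were not taken to pair them, and 1 of 5 controls correlated best with its own number. With the replicate number as a block all 28 calls held, and Hyou1 (0.21, edgeR adjusted p = 0.0416) and Syvn1 (0.25) were called as well. Depth limits Ern2 most, since 3 reads equal 0.218 to 0.384 CPM and 3 controls held 1 to 3 reads of it.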
